A study of Homo sapiens with 6 samples.

Results

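The sirtuins are the 7 human genes SIRT1 to SIRT7, and all of them were found by symbol among the 58735 genes of the deposited table, 1 entry each. Their levels were compared between HEY cells that overexpress miR-200a and HEY cells that carry the empty vector, labelled NC, with 3 polyA RNA sequencing libraries per group. HEY is an established human ovarian cancer line. Both groups were grown in RPMI-1640 with fetal bovine serum, and the labels give 48 to 50 h of incubation for the miR-200a libraries and 51 to 53 h for the vector libraries, all in batch 1. The labelled hours go up by 1 from each library to the next, so they may not be true times. Taken as written, they lie apart between the groups, and incubation time and miR-200a cannot be told apart. Apart from these hours, the labels do not say whether the libraries of a group are separate cultures. Every p-value here therefore reflects the spread among these libraries, which may be technical.

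Sirtuins are enzymes that use the coenzyme NAD to remove acetyl and other acyl groups from lysines. They differ in where they work: SIRT1, SIRT6 and SIRT7 act mainly in the nucleus, SIRT2 mainly in the cytosol, and SIRT3, SIRT4 and SIRT5 in mitochondria. SIRT1 acts on transcription factors such as the FOXO proteins, and it was earlier reported as a target of miR-200a in mammary epithelial cells.

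A microRNA recognises its targets mainly through its seed, bases 2 to 8, which pairs with sites in the 3′ UTR of a messenger RNA. The mature sequences of both arms of miR-200a, from RefSeq on GRCh38.p14, are shown with those of miR-141, which has the same seed as the 3p arm, and of miR-200b, a miR-200 family member with another seed. Capitals mark the seed.
hsa-miR-200a-3p: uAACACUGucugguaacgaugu
hsa-miR-141-3p: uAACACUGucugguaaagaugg
hsa-miR-200b-3p: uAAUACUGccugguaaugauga
hsa-miR-200a-5p: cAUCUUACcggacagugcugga

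Among the sirtuins only SIRT1 had a match to the miR-200a-3p seed, CAGTGTT, in its longest annotated 3′ UTR (GENCODE 29, sense strand). The match started at base 1728 of a 3′ UTR of 1797 bases, at chr10:67918321-67918327 on the plus strand of GRCh38. It was present in 4 of 4 SIRT1 transcripts with an annotated 3′ UTR. The base after it was not an A. The longest 3′ UTRs of the other 6 genes, 213 to 3293 bases long, held no CAGTGTT, and none of the 7 held CAGTATT, the miR-200b match. SIRT5 held 1 match to the miR-200a-5p seed, GTAAGAT, followed by an A, at chr6:13614100-13614106 on the plus strand. Of 10221 tested genes with an annotated 3′ UTR, 23.6% held CAGTGTT, 21.2% CAGTATT and 10.2% GTAAGAT in the longest one. Both stretches are printed with the match in capitals.
SIRT1: aaatacaaaacCAGTGTTttttacttgta
SIRT5: acaatatatgtGTAAGATagaattattca

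Levels are given as FPKM, which counts fragments per kilobase of gene, scaled per library by the authors. The libraries held 15849592 to 21003858 reads on genes. Reads of the precursor gene MIR200A numbered 5, 4 and 11 across miR-200a libraries 1 to 3, with 0 in all vector libraries. Mature microRNAs have no polyA tail, so the level of miR-200a itself was not measured. miR-200a libraries 1 and 3 were close to each other, with a chi-square per degree of freedom of 2.08 over genes. miR-200a library 2 was farther from both (19.6 and 21.9) than from vector libraries 2 (6.74) and 3 (7.95). Vector libraries 2 and 3 were close to each other (4.61). Vector library 1 was far from every library, from 15.3 (vector library 3) to 20.2 (miR-200a library 2). Each group thus held 1 library apart from its other ones. Results are therefore also given without miR-200a library 2, and for SIRT1 without vector library 1. Of the ovarian markers, PAX8 averaged 37.6 FPKM with miR-200a against 31.5 with the vector, and KRT7 183 with miR-200a and 132 with the vector, while MUC16 and EMX2 were listed at 0. All 5 of the 8 ovarian markers that reached the filter had a positive difference, while 51.9% of all tested genes had a negative one. The limma test described below called 0 of them, with adjusted p-values of 0.179 (KRT7) to 0.588 (KRT8). KRT7, KRT8, KRT18 and MSLN had 59.1 to 65.6% GC, and PAX8 had less. Between 57.7 and 83.3% GC the median log2 difference of the tested genes was 0.16. The summed level of the 8 was 400.0 to 502 FPKM in miR-200a libraries and 349 to 388 in vector libraries. KRT7, KRT8 and KRT18 made up most of it. Of 10 markers of other cell types, CD3E and ACTG2 were listed at 0, and only the endothelial gene CDH5 reached the filter, at 47.0 FPKM with miR-200a against 38.0 with the vector. The summed level of those 10 was 40.2 to 51.8 FPKM in miR-200a libraries and 35.6 to 42.9 in vector libraries, and the part of either marker list in the sirtuin values was not tested. In bulk RNA such as this, fewer cells of a type and less RNA per cell cannot be told apart.

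No sirtuin passed the test. Genes with at least 1 FPKM in at least 3 libraries were tested with limma on log2(FPKM + 1), adjusted by Benjamini-Hochberg over all 12231 tested genes. Differences are miR-200a minus vector on that scale, which understates changes of low genes. The test called 49 genes (0.401%) at an adjusted p under 0.05, 0.286% higher and 0.114% lower with miR-200a, and 0 of the 6 tested sirtuins. In this fit 0 sirtuins had an unadjusted p under 0.05, where 13.3% of all tested genes did. With voom, limma's method for counts, on reads recovered from the FPKM values, 0.932% of the genes (0.662% higher, 0.27% lower) and 0 sirtuins were called. The levels of miR-200a and vector libraries overlapped for all 7 sirtuins, while 19% of the tested genes had groups without overlap, 8.29% with miR-200a higher and 10.7% with it lower.

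**Figure D1:**
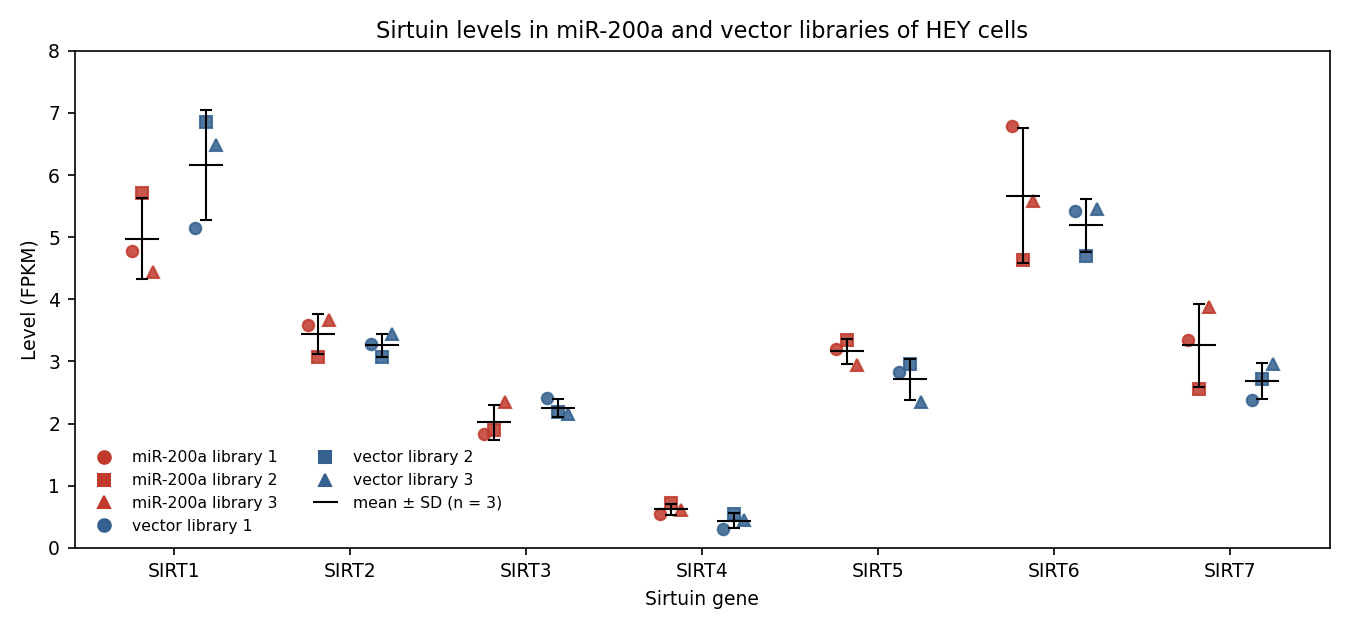
FPKM of the 7 sirtuins in each library, with miR-200a libraries in red left of the vector libraries in blue; black bars give the mean and SD of 3 libraries. The miR-200a and vector points overlap for every gene, and SIRT4 stays under 1 FPKM in all 6 libraries.

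SIRT1, the nuclear deacetylase with the seed match, had the most negative difference of the sirtuins in the fit of all libraries, though not after the GC and length correction described further on, where SIRT3 had it. SIRT1 (ENSG00000096717, chromosome 10, 67884669 to 67918390, plus strand, GRCh38) stood at 4.77, 5.71 and 4.45 FPKM in miR-200a libraries 1 to 3, against 5.15, 6.85 and 6.48 FPKM in vector libraries 1 to 3. Vector library 1 lay below miR-200a library 2, and a miR-200a library was the higher one in 1 of the 9 pairs across the groups. The means were 4.98 ± 0.656 FPKM with miR-200a against 6.16 ± 0.890 FPKM with the vector (SD, n = 3 each), a ratio of 0.808. These levels rest on 378 to 415 reads in the miR-200a libraries, against 477 to 557 in the vector ones. The log2 difference was -0.26, with a 95% confidence interval of -0.54 to 0.03 (SE 0.12, limma adjusted p = 0.410). The exact two-sided permutation test gave p = 0.2, where 3 libraries against 3 cannot go below 0.1. Of all tested genes, 5.53% had a lower log2 difference than SIRT1.

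Without miR-200a library 2 the SIRT1 levels no longer overlapped. The same held for SIRT2, SIRT6 and SIRT7, which were higher with miR-200a, and for 52.8% of the tested genes, 27.2% lower and 25.6% higher, so 4 of 6 sirtuins is near the background. The log2 difference of SIRT1 was then -0.34 (95% confidence interval -0.63 to -0.06, limma adjusted p = 0.116). With vector library 1 left out instead, it was -0.36 (95% confidence interval -0.63 to -0.10, limma adjusted p = 0.329). Over 14 alternative settings SIRT1 stayed negative, between -0.36 and -0.17, and was called in 0 of them, with adjusted p-values of 0.116 to 0.841.

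The other nuclear sirtuins, SIRT6 and SIRT7, had positive differences that did not pass the test. SIRT6, a chromatin-bound histone deacetylase that takes part in DNA repair and in the control of glycolytic genes (ENSG00000077463, chromosome 19, 4174109 to 4182604, minus strand), stood at 6.79, 4.63 and 5.59 FPKM in miR-200a libraries 1 to 3. Vector libraries 1 to 3 had 5.42, 4.70 and 5.46 FPKM of SIRT6. The highest and the lowest SIRT6 values were both in miR-200a libraries, 1 and 2. The log2 difference of SIRT6 was 0.10, with a 95% confidence interval of -0.20 to 0.40 (limma adjusted p = 0.734, exact permutation p = 0.5). It was -0.02 without miR-200a library 1, the only library whose removal reversed the sign, and 0.21 without miR-200a library 2. The GC and length correction described further on reversed the sign too.

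SIRT7, a deacetylase enriched in the nucleolus, where it takes part in ribosomal RNA gene transcription (ENSG00000187531, chromosome 17, 81911939 to 81921323, minus strand), stood at 3.34, 2.55 and 3.88 FPKM in miR-200a libraries 1 to 3, against 2.39, 2.71 and 2.95 FPKM in vector libraries 1 to 3. miR-200a library 2 lay among the vector libraries and the other 2 miR-200a libraries above all of them. The log2 difference was 0.20 with a 95% confidence interval of -0.11 to 0.51 (limma adjusted p = 0.510, exact permutation p = 0.3). Without miR-200a library 2 it was 0.33 (limma adjusted p = 0.0997), the smallest adjusted p of any sirtuin in any setting run.

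SIRT2, a mainly cytosolic deacetylase known for acting on tubulin (ENSG00000068903, chromosome 19, 38878555 to 38899862, minus strand), had 3.59, 3.08 and 3.67 FPKM in miR-200a libraries 1 to 3, against 3.27, 3.07 and 3.44 FPKM in vector libraries 1 to 3. Library 2 was the lowest of its group on both sides, and the ranges of the groups overlapped. The log2 difference was 0.06, the smallest among the tested sirtuins, and its 95% confidence interval of -0.14 to 0.26 lay on both sides of 0 (limma adjusted p = 0.754, exact permutation p = 0.4).

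Among the mitochondrial sirtuins, SIRT3 and SIRT5 had differences of opposite sign and SIRT4 was barely detected. SIRT3, the main deacetylase of mitochondrial proteins (ENSG00000142082, chromosome 11, 215458 to 236931, minus strand), stood at 1.82, 1.90 and 2.35 FPKM in miR-200a libraries 1 to 3, against 2.41, 2.18 and 2.15 FPKM in vector libraries 1 to 3. miR-200a libraries 1 and 2 lay below every vector library and library 3 lay inside the vector range. The log2 difference was -0.11 with a 95% confidence interval of -0.34 to 0.12 (limma adjusted p = 0.632, exact permutation p = 0.3).

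SIRT5 removes succinyl, malonyl and glutaryl groups rather than acetyl groups (ENSG00000124523, chromosome 6, 13574529 to 13615158, plus strand). It had 3.20, 3.34 and 2.94 FPKM in miR-200a libraries 1 to 3, against 2.82, 2.97 and 2.35 FPKM in vector libraries 1 to 3. A miR-200a library was the higher one in 8 of the 9 pairs, the exception being miR-200a library 3 against vector library 2. The log2 difference was 0.17 with a 95% confidence interval of -0.05 to 0.39 (limma adjusted p = 0.460, exact permutation p = 0.2). SIRT5 stayed positive in 14 of 14 alternative settings and was called in 0.

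SIRT4, a mitochondrial sirtuin with weak deacetylase activity that acts on glutamate dehydrogenase (ENSG00000089163, chromosome 12, 120302316 to 120313249, plus strand), did not reach the filter. It stood at 0.539, 0.717 and 0.613 FPKM in miR-200a libraries 1 to 3, from 12, 14 and 14 reads. Vector libraries 1 to 3 had 0.311, 0.549 and 0.455 FPKM from 8, 12 and 9 reads. Summed over libraries these were 40 reads with miR-200a (95% Poisson interval 28.6 to 54.5) and 29 with the vector (19.4 to 41.6), intervals that overlap and cover counting error only. The ratio of the mean FPKM values was 1.42, and a miR-200a library was the higher one in 8 of the 9 pairs (exact permutation p = 0.2). Fitted without a filter, its limma adjusted p was 0.696.

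**Figure D2:**
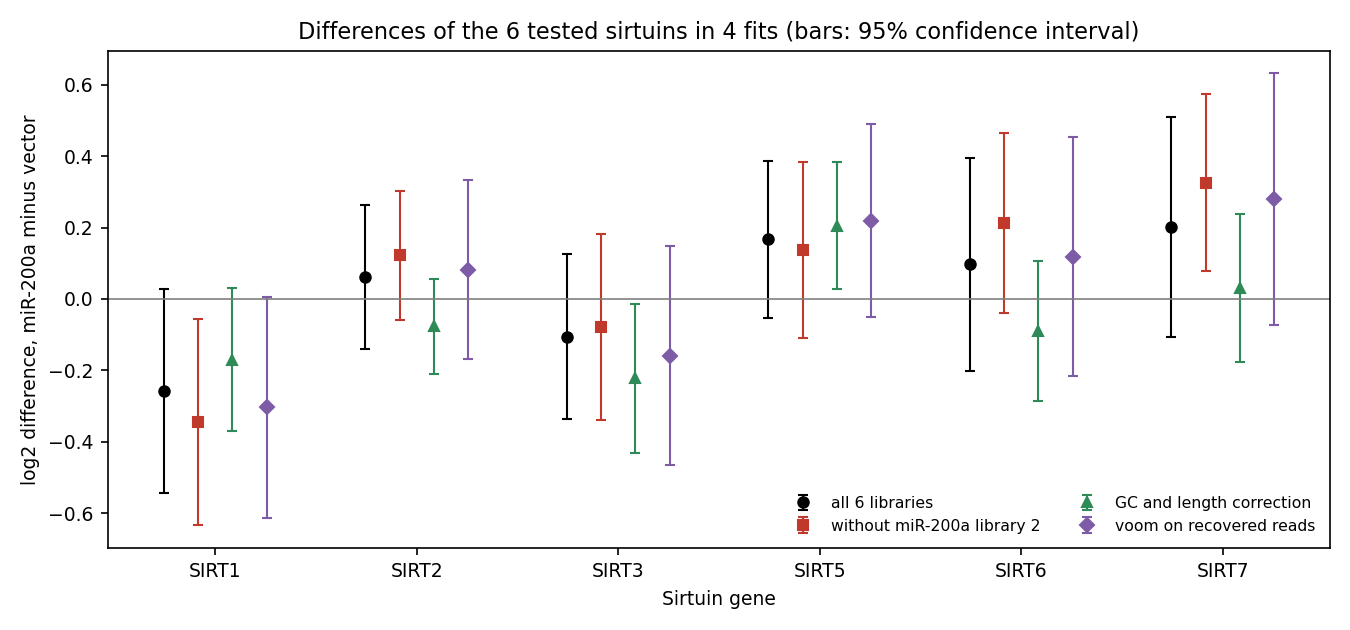
log2 difference (miR-200a minus vector) of the 6 tested sirtuins with its 95% confidence interval, in the fit of all 6 libraries, without miR-200a library 2, after a correction for GC content and length, and with voom on recovered reads. SIRT1 and SIRT3 are below 0 and SIRT5 and SIRT7 above 0 in all 4 fits, while SIRT2 and SIRT6 are below 0 only after the correction.

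The differences ran with base composition. Over the tested genes, split by GC content of the transcript into 5 bins of equal size, the lowest bin (23.1 to 40.9%) had a median log2 difference of -0.10 and the highest (57.7 to 83.3%) one of 0.16. SIRT1, at 40.5% GC, was in the lowest bin, and SIRT2, SIRT7 and SIRT6, at 59.0, 61.9 and 64.9%, were in the highest. In that highest bin the median deviation from a gene's own mean was 0.18 in miR-200a library 1 and 0.19 in library 3, but -0.12 in library 2, against -0.07, -0.16 and -0.02 in vector libraries 1 to 3.

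Each library was then corrected for GC content and gene length, a setting added after the data were seen. SIRT1 moved to -0.17 (95% confidence interval -0.37 to 0.03, limma adjusted p = 0.370) and SIRT7 to 0.03. SIRT2 and SIRT6 changed sign, to -0.08 and -0.09. SIRT3 moved away from 0, to -0.22 (95% confidence interval -0.43 to -0.01, limma adjusted p = 0.269). SIRT5 did so too, to 0.21 (95% confidence interval 0.03 to 0.38, limma adjusted p = 0.243). These intervals are not adjusted for the number of genes. The groups of SIRT3 and of SIRT5 no longer overlapped. SIRT3, at -0.22, was then lower than SIRT1. After the correction 12.7% of the tested genes lay lower without overlap and 10.9% higher. The corrected fit called 215 genes (1.76%, with 1.16% higher and 0.597% lower) and 0 sirtuins. With the replicate number as a block beside the correction, 41 genes (25 higher and 16 lower) and 0 sirtuins were called.

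**Figure D3:**
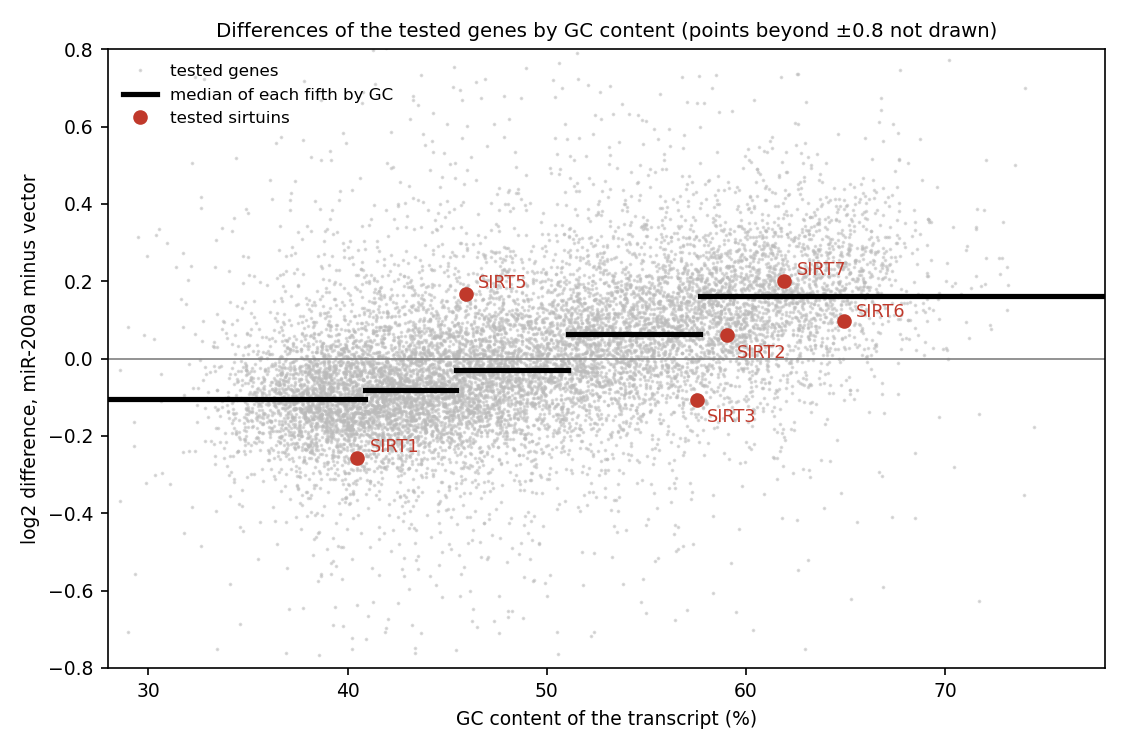
log2 difference (miR-200a minus vector) of the tested genes against the GC content of the transcript, with the median of each of 5 bins by GC content as a black line and the 6 tested sirtuins in red (points outside the axes are not drawn). The medians climb from -0.10 to 0.16 with GC content; SIRT1, SIRT2, SIRT6 and SIRT7 lie on the same side of 0 as the median of their bin, and SIRT3 and SIRT5 on the other side.

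The sirtuins were expressed at modest levels, against a median of 6.08 FPKM over the tested genes with miR-200a and 5.93 with the vector. With miR-200a the order of mean FPKM was SIRT6 (5.67), SIRT1 (4.98), SIRT2 (3.45), SIRT7 (3.26), SIRT5 (3.16), SIRT3 (2.02) and SIRT4 (0.623). With the vector it was SIRT1 (6.16), SIRT6 (5.19), SIRT2 (3.26), SIRT5 (2.71), SIRT7 (2.68), SIRT3 (2.25) and SIRT4 (0.438). SIRT1 and SIRT6 overlapped in both groups and lay above the others. SIRT2, SIRT7 and SIRT5 overlapped with miR-200a, while SIRT2 lay above SIRT5 and SIRT7 with the vector. SIRT3 lay below SIRT5 and SIRT7 with miR-200a and overlapped with both with the vector, and SIRT4 was lowest in every library.

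This order depended on the length by which reads were divided. The deposited lengths cover all exons of a gene, 4551 bases for SIRT1 and 6152 for SIRT7, whereas the principal transcripts of these are 4094 and 1743 bases long. Divided by the length of the principal transcript, the miR-200a means were 11.5 for SIRT7, 10.4 for SIRT2, 9.63 for SIRT6, 5.53 for SIRT1, 5.24 for SIRT5, 4.14 for SIRT3 and 0.626 for SIRT4. The vector means on that scale were 9.80 for SIRT2, 9.47 for SIRT7, 8.81 for SIRT6, 6.85 for SIRT1, 4.60 for SIRT3, 4.50 for SIRT5 and 0.440 for SIRT4. On that scale SIRT1 stood in place 4 in both groups, behind SIRT2, SIRT6 and SIRT7. The reads divided were still those of all exons, so these values are too high wherever other exons held reads. Which transcripts the cells use was not measured here.

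**Figure D4:**
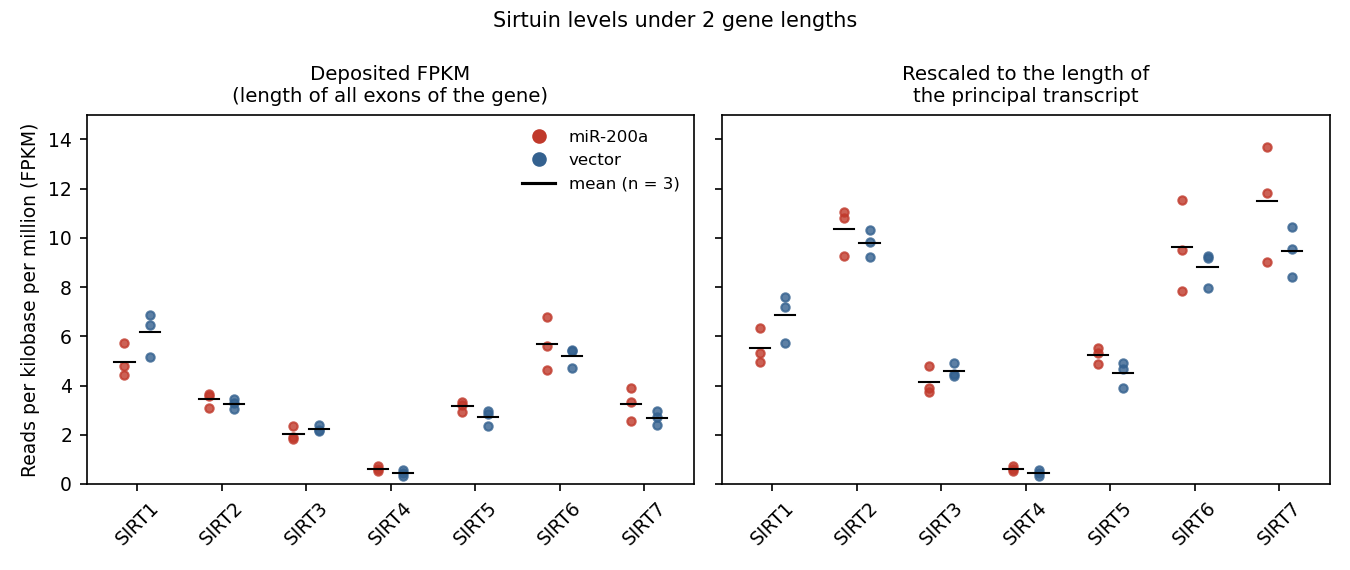
Levels of the 7 sirtuins per library, miR-200a in red left of the vector in blue, as deposited FPKM (left panel) and rescaled to the length of the principal transcript (right panel), with group means as black lines. SIRT1 and SIRT6 lead on the left; SIRT2, SIRT6 and SIRT7 lead on the right, and SIRT4 is lowest on both.

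The summed level of the 7 genes was 23.2 ± 1.10 FPKM with miR-200a against 22.7 ± 0.802 FPKM with the vector (SD, n = 3 each). SIRT1 took 19.8, 26.0 and 18.9% of that sum in miR-200a libraries 1 to 3, against 23.7, 29.7 and 27.8% in vector libraries 1 to 3. The shares overlapped through miR-200a library 2, which lay between vector libraries 1 and 3.

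Some sirtuin reads could belong to neighbouring genes, and the sources used here do not say whether reads were counted by strand. SIRT3 shares 316 exonic bases (6.07% of its exons) with PSMD13, a proteasome subunit gene on the opposite strand that averaged 30.3 FPKM with miR-200a against 29.5 with the vector. SIRT7 shares 105 exonic bases with MAFG on its own strand, and SIRT2 40 with NFKBIB on the other. The antisense gene AL441883.1, which covers 16.1% of the SIRT5 exons, was listed at 0 in all libraries. SIRT1 and SIRT6 overlapped no annotated gene.

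The genes around the sirtuins were described in 7 lists, chosen with earlier results of these data known: NAD synthesis and salvage, other NAD-consuming enzymes, regulators of sirtuins, nuclear and cytosolic substrates, mitochondrial substrates, zinc-dependent deacetylases and lysine acetyltransferases. Of 112 distinct genes 92 were tested, and limma called 0 of them, on log2(FPKM + 1) and with voom. Values of single genes in the lists are mean FPKM unless given per library. Unadjusted p-values under 0.05 were found for 7 of the 92 (7.61%), 5 higher and 2 lower, against the 13.3% of all tested genes. The groups did not overlap for 19 of the 92 (20.7%), near the 19% of all tested genes. The median log2 difference of the 92 was 0.05, against -0.01 over all tested genes. The sirtuins had a median of 0.08. The tested list genes named below that were higher without overlap had 50.7% (XRCC6) to 70.2% GC (HIC1). Those named that were lower without overlap had 38.2% (OPA1) to 46.3% (PDHA1). The part of GC content in these differences was not tested.

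NAD synthesis and salvage (11 of 19 tested, 7 positive and 4 negative, median 0.04) held no gene with an unadjusted p under 0.05. NAMPT, the rate-limiting enzyme of NAD salvage, stood at 14.4, 18.7 and 14.4 FPKM in miR-200a libraries 1 to 3, against 17.3, 20.5 and 19.4 FPKM in vector libraries 1 to 3. As with SIRT1, miR-200a library 2 overlapped with vector library 1 (log2 difference -0.26, limma adjusted p = 0.405). The NAD kinase gene NADK averaged 9.92 ± 1.48 FPKM with miR-200a against 8.12 ± 0.544 FPKM with the vector (SD, n = 3 each, limma adjusted p = 0.393). QPRT, which makes the NAD precursor nicotinic acid mononucleotide from quinolinate, averaged 37.2 with miR-200a and 34.1 with the vector, without overlap (limma adjusted p = 0.452).

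Of the other NAD-consuming enzymes (6 of 9 tested, 2 positive and 4 negative, median -0.07), the poly(ADP-ribose) polymerase gene PARP2 was lower without overlap. It had 9.85, 10.5 and 9.64 FPKM in miR-200a libraries 1 to 3, against 13.6, 11.9 and 12.8 FPKM in vector libraries 1 to 3 (log2 difference -0.32, limma adjusted p = 0.191). The tankyrase gene TNKS2 was also lower without overlap, at 18.9 with miR-200a and 21.1 with the vector (limma adjusted p = 0.412). PARP1, the main enzyme of this group in DNA repair, averaged 31.0 with miR-200a and 31.9 with the vector (limma adjusted p = 0.856). PARP3 averaged 9.72 with miR-200a and 8.64 with the vector (limma adjusted p = 0.566), and PARP4 41.4 with miR-200a and 40.5 with the vector (limma adjusted p = 0.870).

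The regulators of sirtuins (12 of 12 tested, 7 positive and 5 negative, median 0.02) held the widest difference of the lists, in HIC1, a transcriptional repressor known to act on SIRT1. HIC1 had 7.69, 4.74 and 7.31 FPKM in miR-200a libraries 1 to 3, against 2.79, 3.19 and 4.25 FPKM in vector libraries 1 to 3. All miR-200a libraries lay above all vector libraries, with the smallest gap between miR-200a library 2 and vector library 3 (log2 difference 0.77, limma adjusted p = 0.202). HIC1 was called without miR-200a library 2 (log2 difference 0.96, limma adjusted p = 0.0474) and after the GC and length correction (0.52, limma adjusted p = 0.0200), and in no other setting run. Over all 12231 tested genes, 225 were called without miR-200a library 2 and 215 after the correction. The HIC1 transcript had 70.2% GC.

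RPS19BP1, which encodes AROS, a protein reported to activate SIRT1, had 6.20, 6.19 and 6.68 FPKM in miR-200a libraries 1 to 3, against 4.98, 4.56 and 4.57 FPKM in vector libraries 1 to 3. The groups did not overlap, and the limma adjusted p of 0.117 was the smallest in the lists (log2 difference 0.37). CCAR2, the gene of the SIRT1 inhibitor DBC1, averaged 12.5 ± 1.63 FPKM with miR-200a (SD, n = 3), with a log2 difference of 0.17 from the vector (limma adjusted p = 0.497) and overlapping groups. SENP1, a SUMO protease that acts on SIRT1, averaged 4.23 with miR-200a and 4.74 with the vector, without overlap (limma adjusted p = 0.428). The deubiquitinase gene USP22 averaged 36.8 with miR-200a and 35.7 with the vector (limma adjusted p = 0.864). The AMPK subunit gene PRKAA1 averaged 24.7 with miR-200a and 25.2 with the vector (limma adjusted p = 0.920).

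Nuclear and cytosolic substrates (25 of 26 tested, median 0.10) were positive in 19 cases and negative in 6, and 0 passed. FOXO4, a transcription factor gene of the FOXO family, averaged 4.80 with miR-200a and 3.39 with the vector, without overlap (limma adjusted p = 0.291), and FOXO3 6.87 with miR-200a and 6.40 with the vector (limma adjusted p = 0.590). The NF-kB subunit gene RELA averaged 15.3 FPKM with miR-200a against 14.8 with the vector (limma adjusted p = 0.924). XRCC6, the gene of the DNA end-binding protein Ku70, averaged 147 with miR-200a and 134 with the vector, without overlap (limma adjusted p = 0.438). HIF1A averaged 34.6 with miR-200a and 39.1 with the vector (limma adjusted p = 0.409).

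Mitochondrial substrates (18 of 24 tested, 9 positive and 9 negative, median -0.01) held 4 genes lower and 0 higher without overlap among those tested, where 10.7% of all tested genes were lower and 8.29% higher without overlap. Under the filter, ALDH2 (23 to 65 reads per library) and ACSS1 (59 to 103) were higher with miR-200a without overlap, both below 1 FPKM in every library. In other lists, NAPRT (16 to 51 reads per library) and PPARGC1A (7 to 28) under the filter were higher and HDAC8 (226 to 328) lower without overlap. The genes under the filter were not tested in the main fit. The share without overlap among all genes under the filter was not computed. PDHA1, a pyruvate dehydrogenase subunit gene, had 8.74, 9.04 and 8.40 FPKM in miR-200a libraries 1 to 3, against 10.5, 11.3 and 10.6 FPKM in vector libraries 1 to 3 (log2 difference -0.28, limma adjusted p = 0.205). OPA1, needed for fusion of the inner membrane, averaged 23.2 with miR-200a and 25.9 with the vector, without overlap (limma adjusted p = 0.411). SOD2, a superoxide dismutase activated by SIRT3, averaged 5.63 ± 0.912 FPKM with miR-200a against 6.98 ± 0.965 FPKM with the vector (SD, n = 3 each, limma adjusted p = 0.414). The table holds 2 overlapping entries under the symbol SOD2, and the one with the higher level was used, so this level is uncertain. GLUD1 averaged 47.0 with miR-200a and 48.7 with the vector (limma adjusted p = 0.785), ACADVL 37.7 with miR-200a and 33.1 with the vector (limma adjusted p = 0.413) and SHMT2 53.9 with miR-200a and 52.4 with the vector (limma adjusted p = 0.791).

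The other deacetylases and the acetyltransferases, which work on the same kind of lysine mark, held no called gene. Of the zinc-dependent deacetylases (9 of 11 tested, 7 positive and 2 negative, median 0.08), HDAC1 averaged 33.5 ± 0.575 FPKM with miR-200a against 33.1 ± 1.19 FPKM with the vector (SD, n = 3 each, limma adjusted p = 0.922). HDAC2 averaged 14.2 with miR-200a and 15.8 with the vector (limma adjusted p = 0.489). The tubulin deacetylase gene HDAC6 averaged 1.99 with miR-200a and 1.59 with the vector (limma adjusted p = 0.376) and HDAC4 1.81 with miR-200a and 1.41 with the vector (limma adjusted p = 0.413), both without overlap. Of the lysine acetyltransferases (12 of 12 tested, 9 positive and 3 negative, median 0.05), KAT2A averaged 13.1 with miR-200a and 10.5 with the vector (limma adjusted p = 0.338) and KAT8 5.06 with miR-200a and 4.24 with the vector (limma adjusted p = 0.361), both without overlap. EP300 averaged 7.69 with miR-200a and 7.16 with the vector (limma adjusted p = 0.670), and ESCO2 3.21 with miR-200a and 3.57 with the vector, without overlap (limma adjusted p = 0.486).

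**Figure D5:**
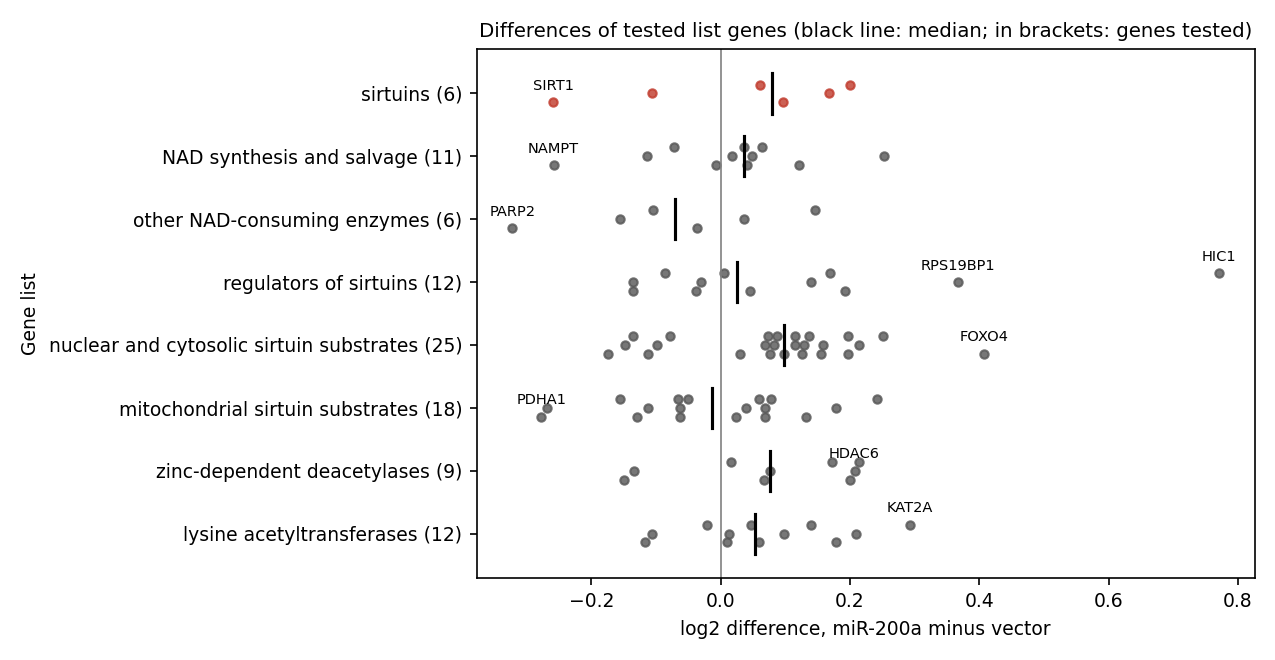
log2 difference (miR-200a minus vector) of each tested sirtuin (red) and of each tested gene of the 7 lists (grey), with the list medians as black lines and the number of tested genes in brackets. Most genes lie within 0.3 of 0, and HIC1 at 0.77 lies farthest from it.

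Of the 92 tested list genes, SOD2, NAMPT and PRKAA2, an AMPK subunit gene, had the profile over the 6 libraries nearest to that of SIRT1. Their root mean square distances on the log2(FPKM + 1) scale, after centring each gene on its mean, were 0.041, 0.057 and 0.095. The GC content of their transcripts was 35.2 to 41.7%, against 40.5% for SIRT1.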

How the data were processed

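The deposited table holds FPKM values made by the authors, 1 column per library. Aligner, counter and strand setting: not given in the sources used here. Mouse builds, GRCm38 and mm10, stand in the submitters' processing notes, but the IDs, positions and exon lengths of all 58735 genes equalled human GENCODE 29 (GRCh38). Each FPKM value times its gene length was a whole multiple of 1 step per library, within 0.01 of a read for 100% of nonzero values, which gave the reads. In a gene of 1 kb, 0.0475 to 0.0626 FPKM corresponded to a single read.

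Genes with at least 1 FPKM in at least 3 libraries were fitted with limma 3.58.1 (R 4.3.3; lmFit, eBayes with a trend, group only, two-sided) on log2(FPKM + 1), with Benjamini-Hochberg adjustment. Exact permutation tests (SciPy 1.17.1) used mean FPKM. The GC and length correction subtracted, per library, natural splines (4 degrees of freedom each) of transcript GC content and gene length fitted to deviations from gene means; 12227 tested genes had a GC content. The principal transcript is the longest coding one tagged so in GENCODE.

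The sirtuins and the lists were chosen with earlier results of these data known. Named were all sirtuins and, per list, every gene called, the 3 with the smallest p, the 2 with the highest mean, a fixed set (SOD2, NAMPT, CCAR2, PARP1, FOXO3, RELA, HDAC1, HDAC2) and the 3 nearest to SIRT1; 1 further gene of the fixed set is not reported here. List genes under the filter whose groups did not overlap are named too. Alternatives changed the pseudocount, filter, scaling, block, libraries and fit.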

Additional observations from a re-analysis of the deposited data

How the results depend on the processing

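No sirtuin was called in any of the 14 alternative settings. The differences of SIRT1, SIRT3, SIRT5 and SIRT7 kept their sign in all 14. That of SIRT2 was -0.076 after the GC and length correction, with and without the replicate block. That of SIRT6 was -0.089 in both of these, and ranged from -0.021 (without miR-200a library 1) to 0.213 (without miR-200a library 2) with 1 library left out; the cause was not tested. Over all genes, 35 were called higher and 14 lower. The counts were 4 and 1 with no filter, where 31124 genes were tested, 81 and 33 with voom on recovered reads, and 142 and 73 after the GC and length correction. With 1 library left out they ranged from 4 to 160 higher and from 2 to 65 lower, the highest of both without miR-200a library 2. Without vector library 1 they were 6 higher and 3 lower. Among list genes 1 was called higher after the correction, HIC1, and 0 to 1 with 1 library left out. With the replicate block 48 were higher and 21 lower, and the SIRT1 adjusted p (limma) was 0.220. After each gene's group mean was subtracted, the remaining deviations of same-numbered libraries correlated by 0.14, 0.37 and -0.01. Those of miR-200a library 3 correlated best with vector library 1 (0.20), so the numbers were not taken as pairs. edgeR and DESeq2, planned for the recovered reads, were not run; voom was the count method used. With 158 to 557 reads per library for the tested sirtuins and 8 to 14 for SIRT4, counting error limits SIRT4 most.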
